A study of Mus musculus with 374 samples.

Results

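The Src family kinases and Csk, the kinase that holds them in check, were described across 5 sorted blood cell populations of 1 mouse. The 7 members were chosen by name: Lck, Fyn, Lyn, Blk, Fgr, Yes1 and Csk, of 19829 mouse genes in the count table. All 7 were present in the table. Of these, 6 reached 10 UMIs over all wells, 5 reached 20 UMIs and 3 reached 50 UMIs. A UMI (unique molecular identifier) is a random tag that marks 1 captured mRNA molecule, so that its copies are counted once. Src itself was read beside them, and the other genes of the family are not analysed here.

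Single cells were profiled by CEL-seq2, a plate-based protocol that counts the 3′ ends of polyadenylated RNA. A female C57BL/6 mouse, 10 to 13 weeks old, gave all cells, none of which carried a stated allele or treatment. Bone marrow gave 44 B lymphocytes (B220+ with low forward scatter), 96 granulocytes (Mac1+ Gr1+), 96 erythroblasts (Ter119+ CD44+ with mid or high forward scatter) and 95 progenitor/stem cells (Lin- Kit+ Sca1+). The thymus gave 43 T lymphocytes (CD3+ with low forward scatter), so that lineage and organ cannot be told apart for them, and the thymic gate takes in developing T lymphocytes. All 374 wells were on 1 plate, and each population filled its own plate rows.

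Src family kinases sit at the inner face of the plasma membrane and phosphorylate tyrosines in the signalling chains of immune receptors and integrins. In textbook accounts Lck and Fyn act at the T cell receptor, Blk and Lyn at the B cell receptor, and Fgr and Lyn in myeloid cells, whereas Yes1 and Src are expressed broadly. Csk phosphorylates the inhibitory tyrosine in the tail of each family member, and the phosphatase CD45, the product of Ptprc, removes that phosphate.

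The UMIs on mouse genes summed to between 135808 (B lymphocytes) and 834812 (progenitor/stem cells) per population, with medians per well of 3028.5 to 7959 and a range over all wells of 8 to 24033. Counts were summed per population and converted to CPM, the usual abundance scale that corrects for library size, over mouse genes only. Each population is 1 sample of 1 mouse, so there is no test between populations, and every interval is a 95% interval for counting error alone. The lists of markers were highest in the population they mark in all 5 cases, with Pax5 at 0 outside the B lymphocytes. The lists for B lymphocytes, T lymphocytes, granulocytes and progenitor/stem cells lay between 0.958% and 6.51% of their own level elsewhere, and that for erythroblasts between 5.38% and 11.8%. Of the wells, 7 correlated best with another population. One of them was the B lymphocyte well A8, with a Gr1 fluorescence of 15209 arbitrary units where the next B lymphocyte had 872. It held 0 UMIs of all 7 members.

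The members are on 5 chromosomes (GENCODE M21, GRCm38): Lck at chr4:129548344-129573641 on the minus strand, Fgr at chr4:132974095-133001910 and Lyn at chr4:3678115-3813122 on the plus strand, Fyn at chr10:39368855-39565381 and Yes1 at chr5:32611171-32687057 on the plus strand, and Blk at chr14:63372836-63417037 and Csk at chr9:57626646-57653631 on the minus strand. Exons of Lyn share 248 bases with Gm26857 and those of Yes1 share 635 bases with Gm10461, both on the opposite strand. Whether the counting used strand is not given, so reads there cannot be assigned with certainty. Exons of Lck share 25 bases with Mir8119. The promoter table of RefSeq (GRCm38.p6), with windows from 250 bases before to 50 after a transcript start, held 7 windows for 5 members. GGAAGT, the core that many ETS family factors bind, searched on both strands together with its reverse complement ACTTCC, was in 3 of these 7 windows and in 23.8% of 32851 windows of all genes. These were both windows of Lck, the member most restricted to T lymphocytes, and the window of Fgr, the member with most UMIs in granulocytes. TATAAA was in 0 of 7 (13.6% of all windows) and GGGCGG in 4 of 7 (35.7%). The motifs were chosen with these sequences in view, and a match is a description, not a binding site. The 3 windows with GGAAGT, which is set in capitals, are given for these genes.
Fgr, chr4:132973845-132974144, plus strand: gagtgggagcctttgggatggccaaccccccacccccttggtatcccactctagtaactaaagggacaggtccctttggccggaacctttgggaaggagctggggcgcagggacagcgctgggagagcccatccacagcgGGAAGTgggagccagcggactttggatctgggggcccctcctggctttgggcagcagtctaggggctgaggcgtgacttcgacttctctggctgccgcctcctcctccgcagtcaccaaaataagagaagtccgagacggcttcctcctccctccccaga
Lck, upstream start, chr4:129573592-129573891, minus strand: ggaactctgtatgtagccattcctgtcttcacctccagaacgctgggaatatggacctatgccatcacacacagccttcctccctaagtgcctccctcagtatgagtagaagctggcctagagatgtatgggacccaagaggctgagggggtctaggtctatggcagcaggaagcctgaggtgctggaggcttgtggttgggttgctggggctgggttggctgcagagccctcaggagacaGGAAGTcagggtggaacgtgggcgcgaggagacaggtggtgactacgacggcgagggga
Lck, downstream start, chr4:129558323-129558622, minus strand: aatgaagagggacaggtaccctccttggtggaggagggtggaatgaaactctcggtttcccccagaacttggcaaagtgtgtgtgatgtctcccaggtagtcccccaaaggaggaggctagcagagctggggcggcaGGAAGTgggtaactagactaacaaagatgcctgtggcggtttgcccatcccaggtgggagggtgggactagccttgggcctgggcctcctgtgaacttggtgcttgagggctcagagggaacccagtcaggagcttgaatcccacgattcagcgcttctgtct

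Blk, the kinase first described in B cells, was the family member with most UMIs in the B lymphocytes. Its UMIs were 52 in B lymphocytes, 3 in T lymphocytes, 2 in granulocytes, 5 in erythroblasts and 5 in progenitor/stem cells. That is 383 CPM (286 to 502) in the B lymphocytes and 4.96 to 15.0 CPM in the other 4 populations. B lymphocytes thus stood alone, 25.6-fold (8.28 to 128) above T lymphocytes, the next in order, and no neighbours among the other 4 differed beyond counting error. The level was the same in both B lymphocyte rows, with 382 CPM in row A and 384 CPM in row B. A Blk UMI was found in 25 of 44 B lymphocyte wells (56.8%, 41.0 to 71.7), at most 5 in a well, and in 2.08% to 6.98% of the wells of the other populations. After each well was thinned to 1000 UMIs the share in B lymphocytes was 32.6% (19.1 to 48.5) and elsewhere at most 2.38%. As a share of the level in B lymphocytes, Blk was at 3.91% in T lymphocytes, 1.29% in granulocytes, 1.96% in erythroblasts and 1.56% in progenitor/stem cells. The B lymphocyte marker list was at 3.24%, 2.23%, 1.27% and 2.71% there, and its part in the low Blk level was not tested.

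**Figure D1:**
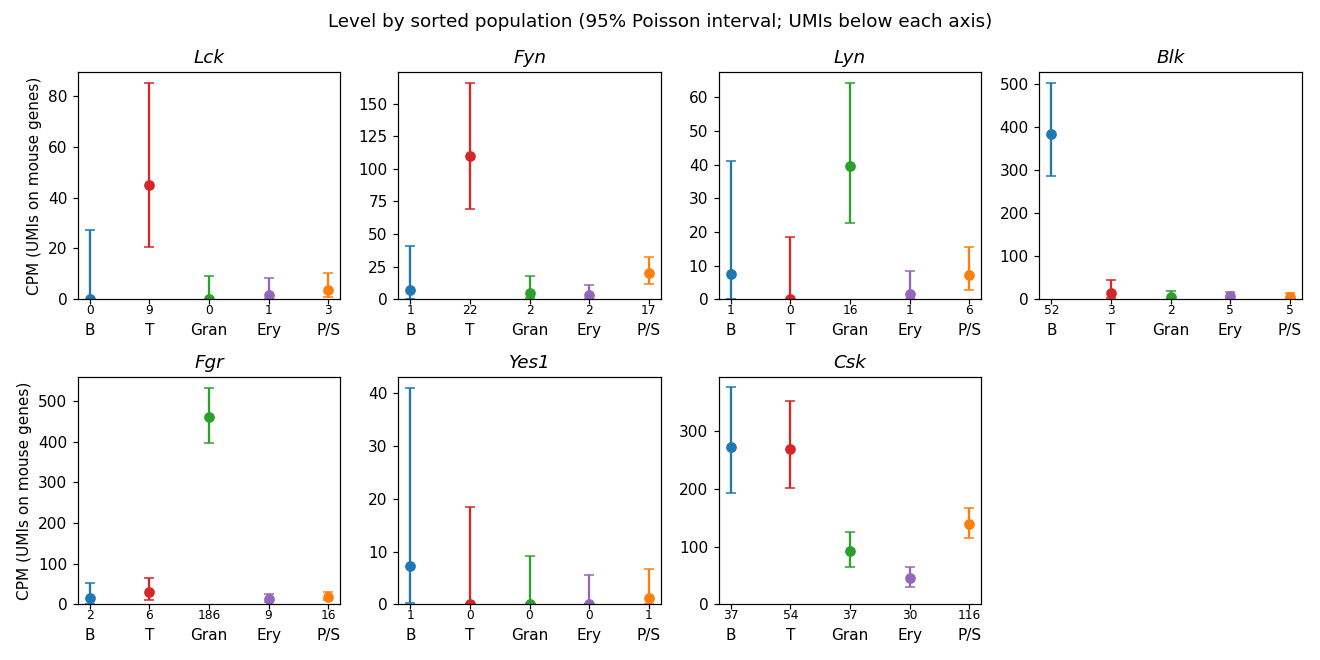
Level of the 7 members (y axis, CPM on a linear scale that differs between panels) in B lymphocytes (B), T lymphocytes (T), granulocytes (Gran), erythroblasts (Ery) and progenitor/stem cells (P/S). Points are the summed level of each population, bars its 95% Poisson interval, and the numbers under each axis its UMIs; Blk is highest in B lymphocytes, Fyn and Lck in T lymphocytes, and Fgr and Lyn in granulocytes.

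Lck and Fyn were both highest in the thymic T lymphocytes, but with few molecules. Lck, which phosphorylates the CD3 chains and is carried by CD4 and CD8, had 0 UMIs in B lymphocytes, 9 in T lymphocytes, 0 in granulocytes, 1 in erythroblasts and 3 in progenitor/stem cells. Its level in T lymphocytes was 44.9 CPM (20.5 to 85.3), 12.5-fold (3.12 to 71.8) that in progenitor/stem cells. It was 2.03-fold the level that 3 UMIs would give in B lymphocytes and 6.04-fold that in granulocytes. With the counting error of both populations the difference was at least 1.34-fold from B lymphocytes and at least 3.97-fold from granulocytes, the lower limits of the exact intervals. The coreceptor genes were present in the same population, with 53 UMIs of Cd4, 108 of Cd8a and 101 of Cd8b1 over all 43 wells.

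Fyn, which acts beside Lck at the T cell receptor, had 1 UMI in B lymphocytes, 22 in T lymphocytes, 2 in granulocytes, 2 in erythroblasts and 17 in progenitor/stem cells. Its level was 110 CPM (68.8 to 166) in T lymphocytes and 20.4 CPM (11.9 to 32.6) in progenitor/stem cells, a 5.39-fold difference (2.73 to 10.8). The progenitor/stem cells came next and were not beyond counting error from the B lymphocytes at 7.36 CPM (0.186 to 41.0). Both T lymphocyte rows gave near-equal values, 110 CPM of Fyn in each, and 45.8 and 43.9 CPM of Lck. In T lymphocytes Fyn was seen in 17 of 43 wells and Lck in 7 of 43. Of these wells 4 held both, and 23 held neither. In 1 draw of 1000 UMIs per well Fyn was left in 2.38% (0.0603 to 12.6) of the T lymphocyte wells and Lck in 7.14% (1.5 to 19.5). Of the progenitor/stem wells Fyn was then left in 2.11% (0.256 to 7.4). Its level in that draw was 23.8 CPM in T lymphocytes (1 UMI) and 21.1 CPM in progenitor/stem cells (2 UMIs). The difference between them was thus not seen at that depth, where the UMIs were too few to measure it. Fyn was also seen in 13 of 95 progenitor/stem wells. Over all 95 wells Fyn was at 18.5% of its level in T lymphocytes, and the marker list of T lymphocytes at 1.13%. The list was not read in the wells with Fyn, and the part of T lymphocyte RNA in this Fyn level was not tested.

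Fgr, a kinase of neutrophils and macrophages downstream of integrins, had the most UMIs of the myeloid members. Its UMIs were 2 in B lymphocytes, 6 in T lymphocytes, 186 in granulocytes, 9 in erythroblasts and 16 in progenitor/stem cells. The granulocytes reached 461 CPM (397 to 532), 15.4-fold (6.94 to 42.5) above the T lymphocytes at 29.9 CPM (11.0 to 65.2), and the other 4 populations did not differ from their neighbours beyond counting error. All 4 granulocyte rows were high, between 378 and 551 CPM, and their extremes did not differ beyond counting error (1.46-fold, 0.938 to 2.27). A UMI was seen in 78 of 96 granulocyte wells (81.2%, 72.0 to 88.5; 41.5% after thinning), with a median of 2 and at most 6 in a well. Elsewhere 4.55% to 16.8% of wells had one, and at most 2.11% after thinning. The level elsewhere was 2.93% to 6.5% of that in granulocytes, where the granulocyte marker list was at 1.13% to 4.41%.

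Lyn, which both starts and dampens signalling in B cells and myeloid cells, had 1 UMI in B lymphocytes, 0 in T lymphocytes, 16 in granulocytes, 1 in erythroblasts and 6 in progenitor/stem cells. The granulocytes reached 39.7 CPM (22.7 to 64.4), 2.65-fold the level that 3 UMIs would give in T lymphocytes, with a lower limit of 1.92-fold once the counting error of both was included. They were not beyond counting error from the B lymphocytes (5.39-fold, 0.837 to 226), in which the single UMI gave 7.36 CPM (0.186 to 41.0). Lyn was seen in 15 of 96 granulocyte wells, 14 of which also held Fgr. Yes1 had 1 UMI in B lymphocytes, 1 in progenitor/stem cells and 0 in the others. The upper limits of its level were 18.4 CPM in T lymphocytes, 9.14 CPM in granulocytes and 5.53 CPM in erythroblasts. No order of populations can be read for it at this depth.

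**Figure D2:**
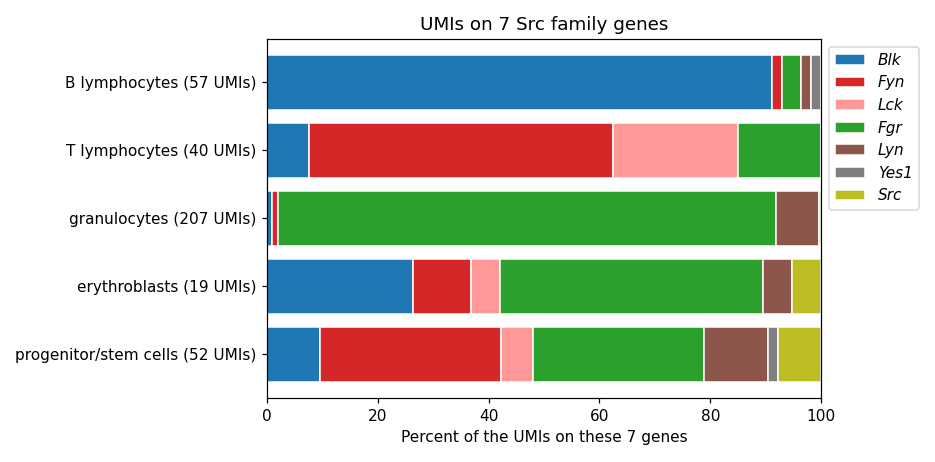
Makeup of the UMIs on 7 Src family genes in each population (x axis, percent of the UMIs on Blk, Fyn, Lck, Fgr, Lyn, Yes1 and Src; the number of UMIs stands beside each name). Blk makes up 91.2% in B lymphocytes, Fyn 55.0% in T lymphocytes and Fgr 89.9% in granulocytes, while the highest share is 47.4% in erythroblasts and 32.7% in progenitor/stem cells.

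The 6 kinases among the members and Src were compared within each population as shares of their summed UMIs. The shares are of these genes alone, not of the whole family. A UMI tags the 3′ end of 1 molecule, so counts were not divided by transcript length, although capture and annotation of 3′ ends can differ between genes. In B lymphocytes Blk gave 91.2% (80.7 to 97.1) of 57 UMIs. In T lymphocytes Fyn gave 55.0% (38.5 to 70.7) of 40 UMIs and Lck 22.5% (10.8 to 38.5). In granulocytes Fgr gave 89.9% (84.9 to 93.6) of 207 UMIs and Lyn 7.73% (4.48 to 12.2). After thinning to 1000 UMIs per well Blk kept 21 of 23 UMIs in B lymphocytes and Fgr 49 of 57 in granulocytes. In T lymphocytes the thinned wells held 6 UMIs, 4 of Lck and 1 of Fyn, so the order of these kinases was not the same at that depth. In progenitor/stem cells no kinase stood out, with Fyn at 32.7% (20.3 to 47.1) and Fgr at 30.8% (18.7 to 45.1) of 52 UMIs, and erythroblasts held 19 UMIs in all.

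The summed level of these genes followed the same split between lineages. It was 513 CPM (445 to 588) in granulocytes and 420 CPM (318 to 544) in B lymphocytes. It was 200.0 CPM (143 to 272) in T lymphocytes, 62.3 CPM (46.5 to 81.7) in progenitor/stem cells and 28.5 CPM (17.2 to 44.5) in erythroblasts. A UMI of 2 or more of them was found in 18 of 96 granulocyte wells, 4 of 44 B lymphocyte wells, 9 of 43 T lymphocyte wells, 3 of 95 progenitor/stem wells and 0 of 96 erythroblast wells.

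Csk was the member with most UMIs over all wells, 274, with at least 30 in each population. Its UMIs were 37 in B lymphocytes, 54 in T lymphocytes, 37 in granulocytes, 30 in erythroblasts and 116 in progenitor/stem cells. In CPM the order was B lymphocytes at 272 (192 to 376), T lymphocytes at 269 (202 to 352), progenitor/stem cells at 139 (115 to 167), granulocytes at 91.7 (64.6 to 126) and erythroblasts at 45.0 (30.4 to 64.2). B and T lymphocytes did not differ beyond counting error (1.01-fold, 0.647 to 1.56). T lymphocytes were 1.94-fold (1.38 to 2.7) above progenitor/stem cells, these 1.52-fold (1.04 to 2.26) above granulocytes, and granulocytes 2.04-fold (1.23 to 3.42) above erythroblasts.

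The order of Csk depended on the plate row and on the scaling. In B lymphocytes row A gave 170 CPM and row B 384 CPM, a 2.26-fold difference (1.09 to 4.93) within 1 population. The log2 ratio of B lymphocytes over progenitor/stem cells was 0.97 (0.40 to 1.52), 1.47 with row B alone and 0.29 with row A alone. In T lymphocytes 2 wells held 7 and 6 of the 54 UMIs, and the other 41 wells gave 224 CPM (161 to 304). Granulocytes lay below progenitor/stem cells in CPM (log2 ratio -0.60), but above them with scran size factors (0.22) and TMM factors (0.17), and further below per ERCC spike-in UMI (-1.56). Per ERCC UMI the B lymphocytes were also below progenitor/stem cells (-0.35). For T lymphocytes over progenitor/stem cells the log2 ratio was 0.96 in CPM, 0.94 with scran and 0.98 with TMM. It was 0.37 after thinning and 0.06 per ERCC UMI. Erythroblasts were below progenitor/stem cells under each of the scalings, weights and sets of wells tried, with log2 ratios of -1.91 to -0.76.

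Set against Csk, these kinases differed between lineages within the same libraries. A scaling factor per population cancels there, but weights per well, as with scran, do not. Granulocytes held 5.59 of their UMIs (3.93 to 8.17) for each Csk UMI and B lymphocytes 1.54 (1.0 to 2.4). T lymphocytes held 0.741 (0.48 to 1.14), erythroblasts 0.633 (0.337 to 1.16) and progenitor/stem cells 0.448 (0.317 to 0.627). The interval of granulocytes lay above 1 and that of progenitor/stem cells below 1, while that of B lymphocytes began at 1.0. In B lymphocytes the Csk side differed by plate row, with 12 UMIs in row A and 25 in row B. Blk had 27 and 25 UMIs in these rows. Within cells, 17 of 44 B lymphocyte wells held both a Blk and a Csk UMI and 21 of 96 granulocyte wells both Fgr and Csk.

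**Figure D3:**
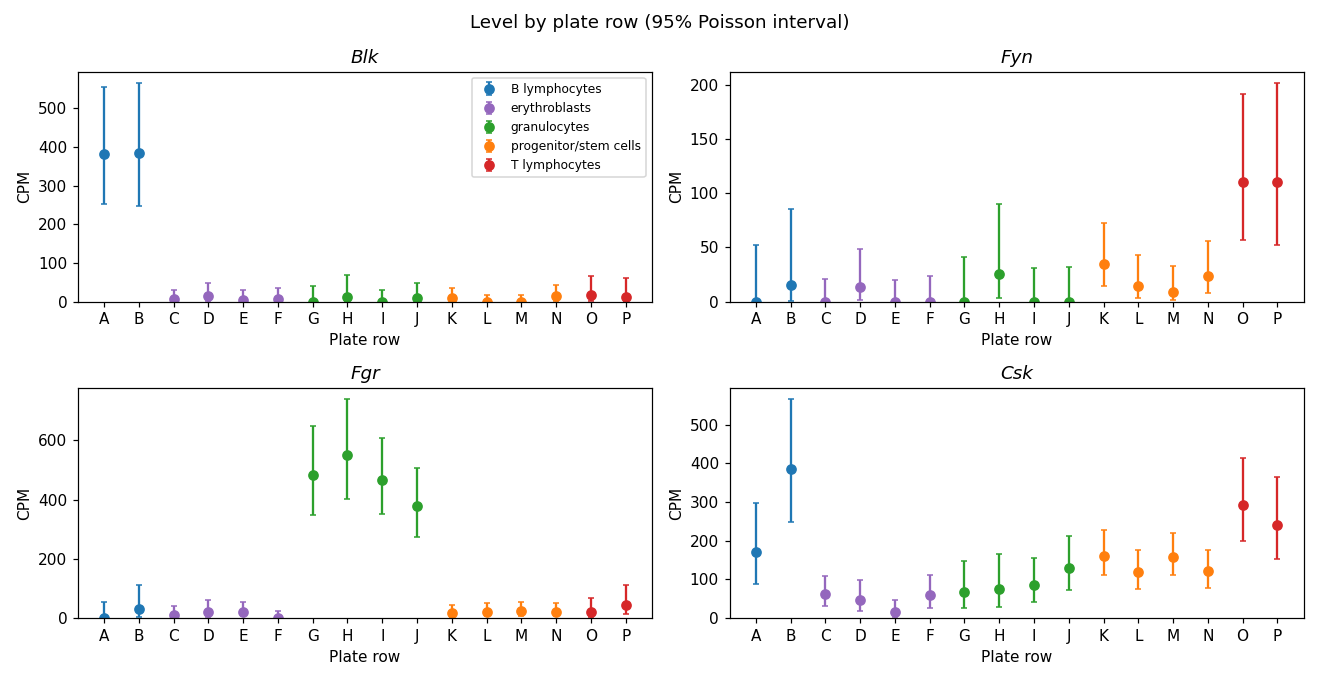
Level of Blk, Fyn, Fgr and Csk (y axis, CPM, linear scale per panel) in each plate row (x axis), with 95% Poisson intervals and rows coloured by population. The rows of the leading population agree for Blk, Fyn and Fgr, whereas the B lymphocyte rows A and B differ for Csk (170 and 384 CPM).

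Read against all genes, the pairwise differences of the members were set beside the share of genes that passed the same fold. Genes with at least 20 UMIs in a pair were counted, sums under 3 UMIs were set to 3 UMIs, and at least 2-fold was called a difference. Between T and B lymphocytes, 1 of 3 members counted was higher in T lymphocytes (Fyn), where 20.1% of 3064 genes were. The log2 ratio of Fyn was 2.31 with its 1 UMI in B lymphocytes set to 3, and 3.90 (1.27 to 9.27) without that floor. After thinning 1 Fyn UMI was left in T lymphocytes and 0 in B lymphocytes. Both were then set to 3, so the resulting 0.03 reflects only the numbers of wells and is no measure of Fyn. In the other direction 1 of 3 was lower (Blk, -4.68, -7.00 to -3.05), against 9.86% of genes, while Csk was at -0.02 (-0.65 to 0.63). The 4 other comparisons share the progenitor/stem cells. Of 2 members counted for B lymphocytes 1 was higher (Blk, 6.00, 4.68 to 7.68) and 0 lower, against 7.51% and 19.3% of 7297 genes. Of 3 members counted for T lymphocytes 1 was higher (Fyn, 2.43, 1.45 to 3.43) and 0 lower, against 9.17% and 19.4% of 7565 genes. After thinning Fyn held 1 UMI in T lymphocytes and 2 in progenitor/stem cells, too few for a ratio. Csk lay just inside the fold for B and for T lymphocytes, at 0.97 and 0.96.

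Granulocytes had 2 of 3 members at least 2-fold above progenitor/stem cells and 0 below, against 11.7% and 48.2% of 7826 genes. These were Fgr (4.59, 3.85 to 5.42) and Lyn (2.46, 1.04 to 4.11). Erythroblasts had 0 of 2 members higher and 1 of 2 lower (Csk, -1.63, -2.26 to -1.04), against 12.1% and 49.4% of 8076 genes, a share near that of all genes. The median log2 ratio of all genes was -0.98 there. A population at least 2-fold above the next was found for 2 of the 3 members with 50 UMIs, Blk and Fgr, and for 24.1% of 6317 genes. B lymphocytes led 1.98% of these genes and granulocytes 5.81%. Over so few members, none of these counts says anything of the family as a set. The minimum was on the sum of both populations, for members and all genes alike. A member of few UMIs could thus enter through the population where it was high. Lyn had 16 UMIs in granulocytes and 6 in progenitor/stem cells, and Fyn 22 in T lymphocytes and 1 in B lymphocytes.

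**Figure D4:**
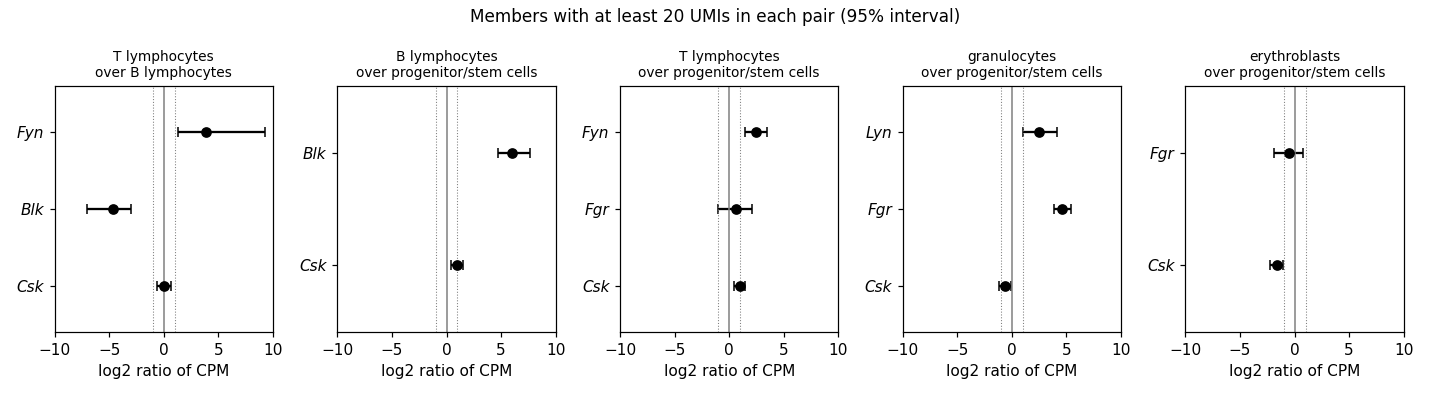
Log2 ratio of CPM (x axis) for the members with at least 20 UMIs in each pair of populations, with 95% intervals for counting error. The solid line marks no difference and the dotted lines a 2-fold difference. Blk, Fyn, Fgr and Lyn lie past 2-fold in the pairs that hold the population where their CPM is highest. Csk, in CPM, lies past it only for erythroblasts.

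The fluorescence recorded for each sorted cell allowed the members to be compared within a population. Wells above the median of a gate marker were set against the rest, and 14 such comparisons held at least 20 UMIs of a member. In 2 of them the interval of the fold left out 1. The same comparison was not made for all genes, so this count cannot be read as a result about the members. Blk was at 511 CPM in the 22 B lymphocytes with more B220 and 245 CPM in the other 22 (log2 ratio 1.06, 0.17 to 2.01), and without well A8 the ratio was 1.19 (0.32 to 2.12). Fgr was at 596 CPM in the 48 granulocytes with more Gr1 and 368 CPM in the other 48 (0.69, 0.26 to 1.13). The depth moved with this result, with medians of 3094 and 4712 UMIs per well. Per well there were 2.04 and 1.83 Fgr UMIs, a log2 ratio of 0.16 (-0.27 to 0.59), which was not beyond counting error.

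The genes most like each member across the 5 populations were sought among 6317 genes, by how much the shares of their summed CPM differed. For Blk they were Vpreb3 (a pre-B cell receptor-associated gene), Ighd (the immunoglobulin delta chain) and Akap12 (a kinase scaffold), with 91.6% to 92.6% of their level in B lymphocytes and Blk at 92.0%. For Fgr they were Chil3 (a chitinase-like protein), Hdc (histidine decarboxylase) and Trpm2 (a calcium channel), with 85.0% to 86.6% in granulocytes and Fgr at 85.6%. For Csk they were Dip2b, Relch and Polb (DNA polymerase beta), with 32.6% to 34.0% in B lymphocytes and 31.6% to 32.5% in T lymphocytes, where Csk was at 33.3% and 33.0%. Only 5 points enter each distance.

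The genes around the kinases were read from fixed lists. Of 15 genes that regulate the family or are inhibited through it, 13 were analysed and 8 were counted between T and B lymphocytes. Of the 8, 2 were higher and 1 lower, against 20.1% and 9.86% of all genes. Their median log2 ratio was 0.39, where that of all 3064 genes was 0.27. Ptprc was at 2900 CPM in T lymphocytes and 692 CPM in B lymphocytes (log2 ratio 2.07, 1.75 to 2.40), and Cblb, a ubiquitin ligase, lay past the fold at 1.02 with an interval that included no difference (-0.37 to 2.65). With scran size factors or TMM factors 1 of 8 was higher, where 522 and 556 of 3064 genes were. Dok3, an inhibitory adaptor of B and myeloid cells, was at 390 CPM in B lymphocytes with 1 UMI in T lymphocytes (-6.29, -11.62 to -3.75). In granulocytes against progenitor/stem cells 4 of 11 were higher, Ptprc (1.57), the phosphatase Ptpn6 (1.27), Cbl (1.01) and Dok3 (4.19). Another 4 were lower, among them Matk, the kinase most like Csk (-2.20, -4.15 to -0.73). The median was -0.48 where that of all genes was -0.95, and 11.7% of all genes were higher and 48.2% lower. With scran size factors 5 of the 11 were higher and 3 lower, with TMM factors 5 and 2, and per ERCC UMI 1 and 6. Of 7826 genes 2643 were higher and 1771 lower with scran, 1647 and 2055 with TMM, and 455 and 5741 per ERCC UMI. In erythroblasts 0 of 11 were higher and 7 lower (median -1.26), where 49.4% of all genes were lower and their median was -0.98. With scran size factors 2 of these 11 were higher and 4 lower, where 2190 and 2175 of 8076 genes were. Against progenitor/stem cells 2 of 11 were higher and 1 lower in B lymphocytes, against 7.51% and 19.3% of all genes. In T lymphocytes 2 of 9 were higher and 2 lower, against 9.17% and 19.4%. Per ERCC UMI 1 of 11 was higher and 7 were lower in B lymphocytes, where the log2 ratio of Ptprj changed sign. Of 7297 genes 133 were then higher and 5776 lower. In T lymphocytes 1 of 9 was then higher and 4 were lower, beside 247 and 4316 of 7565 genes.

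Among 17 downstream kinases and adaptors, 10 were counted between T and B lymphocytes, with 5 higher and 3 lower and a median of 1.80. Over all genes 20.1% were higher and 9.86% lower. The kinases that act next after the Src family differed in opposite directions. Zap70 was at 160 CPM in T lymphocytes and had 1 UMI in B lymphocytes (4.44, 1.86 to 9.79), while Syk was at 1110 CPM in B lymphocytes and 20.0 CPM in T lymphocytes (-5.80, -7.69 to -4.41). The adaptor Skap1 had 94 UMIs in T lymphocytes and 0 in B lymphocytes, and its relative Skap2 was lower in T lymphocytes (-3.30, -5.69 to -1.54). Against progenitor/stem cells 3 of 11 were higher in granulocytes, Lcp2 (1.11), Fyb (1.77) and Hcls1 (1.60), and 0 of 10 in erythroblasts, where 10 of 10 were lower (median -3.26, beside -0.98 for all 8076 genes, of which 49.4% were lower). In granulocytes 2 of 11 were lower, and over all genes 11.7% were higher and 48.2% lower. The counts for granulocytes moved with the scaling. With scran size factors 7 of 11 were higher, with TMM factors 6, and per ERCC UMI 0. Over all 7826 genes 2643, 1647 and 455 were higher.

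Of the 21 receptors and coreceptors, 20 were analysed. Between T and B lymphocytes 8 of 16 counted were higher and 6 lower (median 2.03), against 20.1% and 9.86% of all genes. The higher ones were all surface genes of T cells. The lower ones were led by Cd79a (-6.85, -9.91 to -4.97), a signalling chain of the B cell receptor. In granulocytes the adaptor chains Fcer1g (3.87) and Tyrobp (4.46), the integrin chain Itgb2 (3.22) and the cytokine receptor Csf3r (2.70) were higher than in progenitor/stem cells. Of the 10 genes counted 4 were lower (median 0.19). Over all genes 11.7% were higher and 48.2% lower there. In erythroblasts 1 of 11 was higher, Epor, the erythropoietin receptor (5.14, 3.99 to 6.61), and 7 were lower (median -1.36). Of these Cd79b and Fcer1g changed sign with scran size factors. Over all genes 12.1% were higher and 49.4% lower in erythroblasts.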

How the data were processed

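The authors deposited a table of raw UMI counts, 1 column for each well, without normalization. As the paper describes *scPipe*, reads were aligned, assigned to exons, demultiplexed by designed barcodes and collapsed to UMIs. Aligner version, genome build, annotation and strand setting were not given in the sources used here. As the read 1 layouts in the labels contradict each other, the table was taken as it stands. Well names linked columns to samples, leaving 9 columns without a sample unused. Wells held single sorted cells, and no doublet caller was run.

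Gene names and coordinates come from GENCODE M21 (GRCm38). The counts may rest on another build. A symbol was found for 19755 of 19829 gene IDs. Counts were summed per population and scaled to CPM on mouse genes, with the 74 ERCC spike-ins left out. Intervals are 95% exact Poisson (levels), exact binomial (shares) and exact conditional binomial (ratios), and cover counting error only. Cells of 1 mouse are not replicates, so no p-value was computed. Medians of 3028.5 to 7959 UMIs per well leave genes of few UMIs with wide intervals. Interval scripts were tested on data with known answers. Thinning to 1000 UMIs was 1 seeded draw and left out 5 shallower wells. Alternatives used scran 1.30.0 size factors, edgeR 4.0.16 TMM factors (R 4.3.3), ERCC scaling, other totals, weights, wells, minimum counts and folds. Python 3.11.15, numpy 2.4.6, pandas 2.3.3, scipy 1.17.1 and matplotlib 3.10.9 were used.

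The members and lists were chosen with earlier results of these data known. Genes named are the 7 members, list genes with at least 20 UMIs over all wells, and for each member with at least 50 UMIs the 3 genes with the nearest profile. Ptpn22, Dok2, Cd247 and Frk were on the lists and are not analysed here, nor are Ncr1 and Gzma of the marker lists. A result of the family list is not reported here, and sums over the family were computed without it after the results had been seen.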

Additional observations from a re-analysis of the deposited data

How the results depend on the processing

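No paired analysis was possible because all cells came from 1 mouse and the well numbers only name wells. No member at least 2-fold apart changed direction under any alternative. The share of the family UMIs on Fyn went after thinning from 55.0% to 16.7% (1 of 6 UMIs) in T lymphocytes and from 32.7% to 50.0% (2 of 4 UMIs) in progenitor/stem cells, an alternative chosen after seeing the data. Of the values of single members, 100 of 117 log2 ratios and 249 of 280 levels stayed within their intervals, and 9 of 10 shares of wells left theirs after thinning. Some levels and ratios could not move. A member with 0 UMIs in a population stayed at 0, and leaving out well A8 changed B lymphocytes only. These counts are thus no measure of stability. The members at least 2-fold apart were 2 for T against B lymphocytes, and 1 after thinning or with at least 50 UMIs. Of all genes 918 of 3064 were apart, 794 after thinning and 304 of 1103 with at least 50 UMIs. For B lymphocytes against progenitor/stem cells they were 1, and 2 with scran or TMM factors, a total without Gm42418 and haemoglobin genes, the mean over wells of CPM, without well A8, without the wells nearest to another population, or thinned, where Csk passed the fold. For T lymphocytes against progenitor/stem cells they were 1, 2 with the same total or at least 10 UMIs, and 0 with at least 50 UMIs. Of all genes 2160 of 7565 were apart, 2046 with that total, 2502 of 9911 with at least 10 UMIs and 1062 of 4060 with at least 50 UMIs. Thinned they were 2, Fyn and Fgr, both at a log2 ratio of 1.18. Their sums were under 3 UMIs in both populations and were set to 3, so this ratio reflects only the numbers of wells. There 3005 of 7565 genes were higher. For granulocytes they were 2, 1 with at least 50 UMIs, and 3 with at least 10 UMIs or per ERCC UMI. For erythroblasts they were 1, 0 with scran or TMM factors or at 4-fold, and 2 with at least 10 UMIs. The members with a leading population were 2 of 3, 3 of 5 with at least 20 UMIs, 1 of 2 with at least 100 UMIs and 2 of 3 at 4-fold. Over all genes the shares were 24.1%, 20.7%, 24.4% and 9.4%.

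Scaling moved the median log2 ratio of all genes against progenitor/stem cells. In granulocytes it was -0.95 in CPM, 0.26 with scran, -0.18 with TMM and -1.91 per ERCC UMI. In erythroblasts it was -0.98, -0.05, -0.12 and -1.09. In B lymphocytes it was -0.32, 0.06, -0.21 and -1.64, in T lymphocytes -0.26, -0.08, -0.24 and -1.16, and between T and B lymphocytes 0.27, 0.11, 0.19 and 0.70. The share of higher genes among those past 2-fold went from 19.5% (913 higher, 3769 lower) to 59.9% with scran (2643 and 1771), 44.5% with TMM (1647 and 2055) and 7.3% per ERCC UMI (455 and 5741) in granulocytes. In erythroblasts it went from 19.6% (974 and 3989) to 50.2% with scran (2190 and 2175) and 41.4% with TMM (1832 and 2596). In B lymphocytes it went from 28.0% (548 and 1410) to 55.3% (899 and 728) with scran and 2.3% (133 and 5776) per ERCC UMI, in T lymphocytes from 32.1% (694 and 1466) to 48.6% (893 and 945) and 5.4% (247 and 4316), and between T and B lymphocytes from 67.1% (616 and 302) to 83.8% (1067 and 206) per ERCC UMI. Minimum counts of 10 and 50 UMIs gave 1836 and 304 genes past 2-fold between T and B lymphocytes. Chosen after seeing the data, leaving out each plate row of the lymphocytes turned the sign of no log2 ratio past 2-fold. The cause of these shifts was not tested. Depth limits Lck, Lyn and Yes1, with 13, 24 and 2 UMIs over all wells, for which most orders of populations cannot be told.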

Other observations

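Genes of other cell types that the gates could hold were read as lists. Of 4 natural killer genes 2 were analysed, Klrb1c and Nkg7, at 120 CPM (76.7 to 178) in T lymphocytes and 73.1 CPM (55.9 to 93.9) in progenitor/stem cells, with Klrb1c at 0 in both. The 3 dendritic cell genes Siglech, Bst2 and Irf8 were at 228 CPM (155 to 324) in B lymphocytes, with Siglech and Bst2 at 0, and at 206 CPM (164 to 255) in granulocytes. Pf4, Itga2b and Ppbp, of platelets and megakaryocytes, reached 83.9 CPM (65.4 to 106) in progenitor/stem cells and at most 10.5 CPM elsewhere. The mast cell or basophil genes Mcpt8, Cpa3 and Ms4a2 reached 29.9 CPM (19.4 to 44.2) in progenitor/stem cells and at most 12.4 CPM elsewhere. The monocyte genes Csf1r, Ly86 and F13a1 were at 155 CPM (95.7 to 236) in B lymphocytes, 748 CPM (666 to 838) in granulocytes, 29.9 CPM in T lymphocytes, 12.0 CPM in erythroblasts and 40.7 CPM in progenitor/stem cells.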
